A study of Mus musculus with 10 samples.

Results

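The Dlk1-Dio3 imprinted miRNA cluster was described in small extracellular vesicles from the mouse heart. Its members were the mature miRNAs, of either arm, whose miRNA number was on a list of 49 numbers of this locus on mouse chromosome 12. The count table held 61 such miRNAs among its 733 rows, and 603 of those rows carried an established miRNA name. The members belonged to 40 of the 49 numbers and came from 43 precursors. The other 9 numbers (miR-494, miR-654, miR-665, miR-666, miR-668, miR-679, miR-770, miR-1197 and miR-3072) were not analysed here. The rule used these numbers and no measured value, but the list of numbers was drawn up with earlier results of these data known.

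Small RNA was sequenced from vesicles isolated out of heart tissue of male C57BL/6J mice. The control group, fed chow, had 5 libraries. The other group, HFD plus L-NAME, had 5 libraries from mice given a 60% fat diet and 0.5 g/L of L-NAME, which blocks nitric oxide synthases, for 12 weeks from the age of 8 weeks. It is called treated below and models heart failure in which the ejection fraction is preserved. Vesicles were prepared from minced, collagenase-digested hearts by filtration and ultracentrifugation, so vesicles of any cell type of the organ and of its blood could be present. Each library was labelled as a separate sample, but the labels do not tie libraries to single animals, so p-values measure only the spread between these samples. In bulk vesicle RNA, fewer vesicles of a cell type and less of a miRNA per vesicle cannot be told apart.

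The Dlk1-Dio3 locus is one of the largest miRNA clusters of placental mammals. The protein-coding genes Dlk1, Rtl1 and Dio3 are active on the paternal allele, whereas the miRNAs and the long noncoding RNAs Meg3, Rian and Mirg come from the maternal allele. A set of miRNAs on the strand opposite Rtl1, miR-127 among them, is fully complementary to the Rtl1 mRNA and represses it. The cluster is known for high levels in the embryo, the placenta and the adult brain, and for a fall in heart and skeletal muscle after birth.

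The mature sequences of the 5 members that could be tested for a group difference, from RefSeq on GRCm38.p6, are given 5′ to 3′ with the seed, bases 2 to 8, in capitals. They show that these members do not share a seed, although those of miR-411-5p and miR-379-5p, neighbours in the genome, differ at 1 base only.
miR-411-5p (chr12:109710190-109710210, + strand): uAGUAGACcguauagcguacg
miR-379-5p (chr12:109709065-109709085, + strand): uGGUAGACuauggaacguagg
miR-127-3p (chr12:109592888-109592909, + strand): uCGGAUCCgucugagcuuggcu
miR-154-5p (chr12:109738438-109738459, + strand): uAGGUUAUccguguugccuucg
miR-410-3p (chr12:109743764-109743784, + strand): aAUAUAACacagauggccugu

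The precursors of the most abundant members are shown because most counts fell on 1 arm of Mir379, Mir127 and Mir154. For Mir411 only the 5p arm was analysed here. Capitals mark the 5p arm and then the 3p arm.
Mir411 (chr12:109710175-109710256, + strand): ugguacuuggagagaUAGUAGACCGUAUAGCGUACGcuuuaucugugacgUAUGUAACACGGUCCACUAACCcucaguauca
Mir379 (chr12:109709060-109709125, + strand): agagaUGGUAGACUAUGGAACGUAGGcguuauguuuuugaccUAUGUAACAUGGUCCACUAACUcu
Mir127 (chr12:109592846-109592915, + strand): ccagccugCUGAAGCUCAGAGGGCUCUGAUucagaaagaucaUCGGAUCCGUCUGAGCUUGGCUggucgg
Mir154 (chr12:109738433-109738498, + strand): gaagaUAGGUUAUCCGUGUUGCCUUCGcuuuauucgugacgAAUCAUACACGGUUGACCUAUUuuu
Mir127 lay within the span of Rtl1 on the opposite strand, and Mir154 within the span of Mirg. Mir379 and Mir411 lay between Rian and Mirg, inside neither annotated gene.

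The 10 libraries held 238434 to 420828 miRNA counts each. A count of 0 in a library therefore left room for 7.13 to 12.6 CPM (counts scaled to a common library total), here as 3 counts over the miRNA total of the library with no TMM factor. These limits and the Clopper-Pearson intervals cover counting error only, since reads were not stated to be collapsed to molecules. The intervals of fold changes come from the edgeR fit and include the spread between libraries. The summed level of the 6 listed muscle miRNAs was 246874 to 359695 CPM in control and 292949 to 474246 CPM in the treated group. Of the counts of this list, miR-1a-3p gave 87.8%. Of its 5 tested members, 3 were higher and 2 lower in the treated group, and edgeR called 0 at an adjusted p under 0.05. miR-1a-3p, the leading muscle miRNA, took 24.6% ± 4.10 of the counts in control and 33.9% ± 6.17 in the treated group (SD, n = 5 each). No library stood apart by Dixon's test in the cluster's own values.

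The cluster made up a small fraction of the vesicle miRNAs, and a few members carried it. It took 9453 of 3143858 counts, or 0.301%. miR-411-5p had 4386 counts, 46.4% of the cluster, and ranked 44 in the whole table. miR-127-3p had 1857 counts (19.6%) and miR-379-5p had 1656 counts (17.5%). These 3 members held 83.6% of the cluster counts, and miR-154-5p, with 472 counts, brought the share to 88.6%.

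The remaining 57 members shared 1082 counts. The median member had 7 counts over all 10 libraries, 30 members had 5 or fewer, and 13 had a single count. Of the pairs of a member and a library, 50.0% were at 0. Only 16 members had a count in every library, and 20 were seen in 1 library. A member at 0 in a library was not detectable at this depth rather than absent. Every row of the table had at least 1 count over the 10 libraries, so a member with no count in any library would have no row.

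Counts were concentrated at particular positions of the locus. The precursors spanned chr12:109571990-109743795 on GRCm38.p6, or 171.8 kb. The Mirg side, from Mir379 to Mir410, held 43 members of 31 precursors and 77.3% of the cluster counts. The side between Meg3 and the end of the anti-Rtl1 precursors held 16 members of 10 precursors and 22.05% of the counts, of which miR-127-3p alone gave 89.1%. Within Rian lay 2 members with 62 counts together, or 0.656%: miR-341-3p, with 61 counts, and miR-370-5p, with 1.

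**Figure D1:**
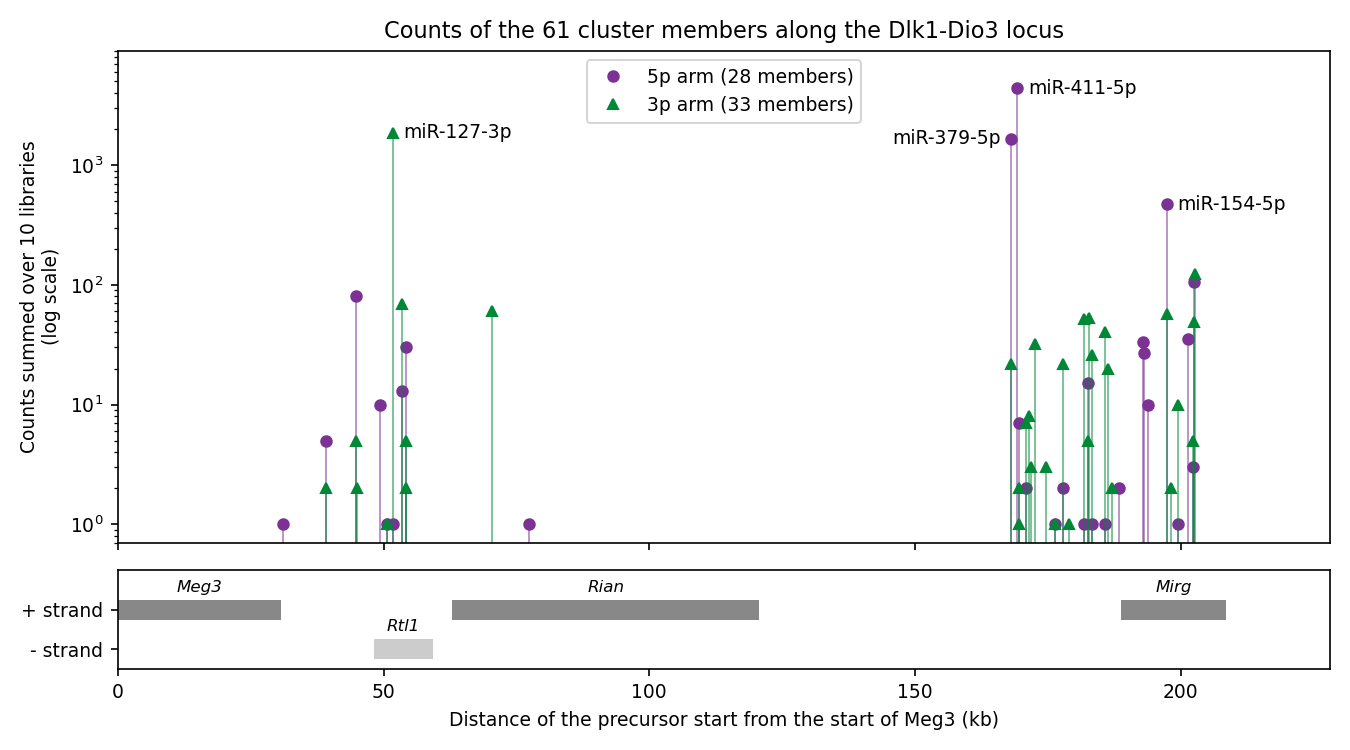
Counts summed over the 10 libraries (vertical axis, log scale) for the 61 cluster members, placed by the distance of their precursor from the start of Meg3 in kb (horizontal axis), with circles for 5p and triangles for 3p arms. Grey boxes show annotated genes by strand; miR-411-5p (4386 counts) and miR-379-5p (1656) stand side by side, and miR-127-3p (1857) rises alone opposite Rtl1.

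Adjacent precursors differed widely in counts. Mir379 and Mir411, whose hairpins are 1049 bases apart, together held 64.1% of all cluster counts, whereas the other 29 precursors of the Mirg side held 1243 counts. Mir299a is the next precursor after Mir411 and had 9 counts on both arms, against 4386 for Mir411. Such differences between miRNAs mix abundance with the efficiency of adaptor ligation, which was not measured here.

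Among the Mirg-side members, miR-411-5p was the most abundant, and its level differed between the groups by less than the spread between libraries. In control 1 to control 5 it stood at 1951, 1525, 1218, 1245 and 1146 CPM after TMM scaling. The libraries treated 1 to 5 had 1070, 1232, 1366, 1363 and 1503 CPM. Control 1 was the highest and treated 1 the lowest library, and the groups overlapped. The means were 1417 ± 331 and 1307 ± 164 CPM (SD, n = 5 each), with a log2 difference, treated minus control, of -0.12 ± 0.19 (SE) and an edgeR quasi-likelihood adjusted p of 0.821. The 95% interval of the fold ran from 0.693 to 1.23.

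miR-379-5p, the first miRNA of the Mirg-side group and its near relative in sequence, had a similar spread. Its control libraries held 709, 525, 428, 401 and 455 CPM. The treated libraries held 462, 533, 706, 481 and 490 CPM. A single library of each group, control 1 and treated 3, stood above the rest at nearly the same level. The means were 504 ± 123 and 534 ± 99.5 CPM (SD, n = 5 each), and the log2 difference was 0.08 ± 0.21 (edgeR adjusted p = 0.879; interval of the fold 0.772 to 1.45).

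miR-154-5p, whose inhibition has been reported to protect the pressure-overloaded mouse heart, was next in abundance on this side. It stood at 196, 143, 129, 158 and 171 CPM in control and at 95.7, 159, 132, 189 and 101 CPM in the treated group. Libraries 1 and 5 of the treated group were below every control library, and the other three lay within the control range. The means were 159 ± 26.1 and 135 ± 39.1 CPM (SD, n = 5 each), and the log2 difference was -0.23 ± 0.26 (edgeR adjusted p = 0.766; interval of the fold 0.576 to 1.26).

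miR-410-3p, the last miRNA of the cluster, has been reported to promote proliferation of rodent cardiomyocytes. Its control libraries were at 56.1, 41.2, 42.8, 27.7 and 32.5 CPM, and the treated ones at 20.5, 44.7, 49.5, 21.3 and 52.7 CPM. Treated 1 and treated 4 were below every control library, and the other three lay in the upper part of the control range. With 123 counts in all, its interval was the widest of the tested members: the log2 difference was -0.11 ± 0.39, the edgeR adjusted p was 0.911 and the fold interval ran from 0.521 to 1.66.

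On the anti-Rtl1 side, miR-127-3p, a repressor of Rtl1, was the tested member. Its levels were 522, 644, 696, 490 and 740 CPM in control, and 270, 703, 769, 663 and 450 CPM in the treated group. The lowest and the highest of the 10 libraries were both from the treated group, so this group enclosed the control range. The means were 618 ± 109 and 571 ± 206 CPM (SD, n = 5 each), and the log2 difference was -0.11 ± 0.27 (edgeR adjusted p = 0.878; interval of the fold 0.622 to 1.37).

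**Figure D2:**
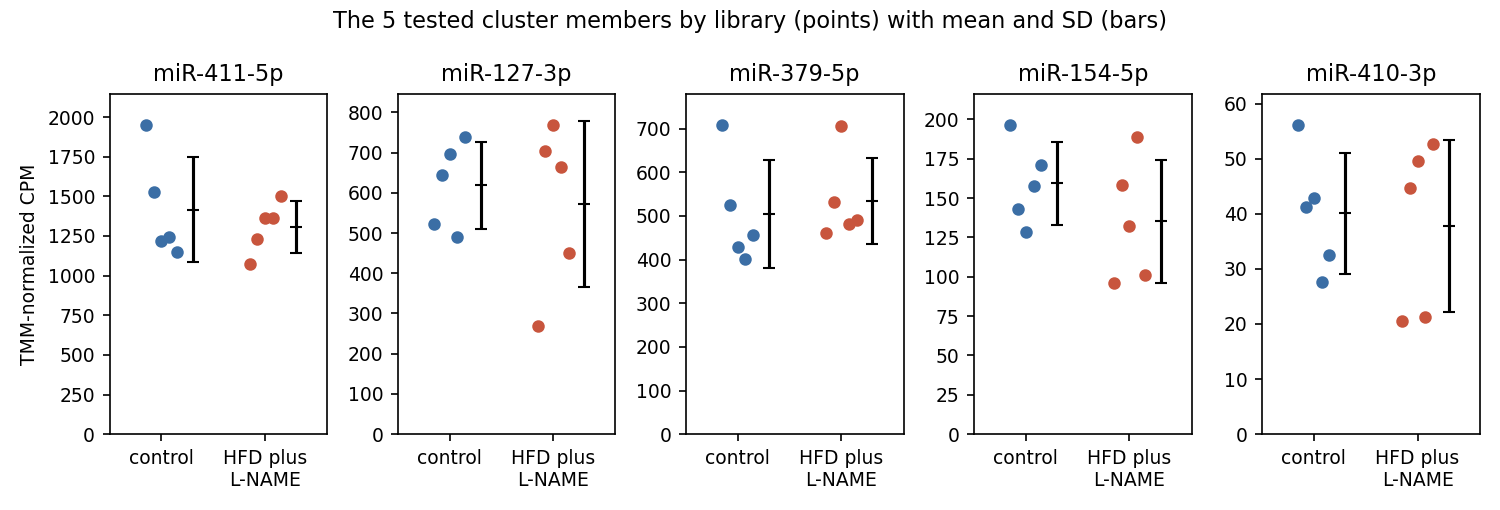
TMM-normalized CPM (vertical axes, each from 0) of the 5 tested cluster members in the 5 control and 5 HFD plus L-NAME libraries (treated); points are libraries and bars show the mean and SD. The groups overlap in every panel, and the treated libraries of miR-127-3p run from 270 to 769 CPM, around the control range of 490 to 740 CPM.

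These 5 members were the ones that passed the filter on low counts, and 56 did not; the 5 held 89.9% of the cluster counts. None of the 5 was called at an adjusted p under 0.05, where the background over the whole table was 0.0% (0 of 177 tested miRNAs). At an unadjusted p under 0.05 none of the 5 passed in edgeR, against 15.8% of all tested miRNAs (28 of 177). In 0 of the 5 did the groups fail to overlap, against 3.95% of all tested miRNAs (7 of 177). DESeq2 and limma also called 0 of the 5. Of the 5, 1 was higher and 4 were lower in the treated group, with a median log2 difference of -0.11, beside 86 higher, 91 lower and a median of -0.02 over all tested miRNAs.

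Under the 2 scalings that turned a sign, each of the 5 members kept its side of the median of all tested miRNAs. Without miR-1a-3p, the median log2 difference of all tested miRNAs went from -0.02 to 0.12, and those of miR-411-5p (0.0030), miR-127-3p (0.019) and miR-410-3p (0.0043) turned positive while staying below that median. With the constants behind the authors' scaled values as library sizes, that median was -0.37, and miR-379-5p, at -0.34, stayed above it. Leaving out single libraries moved some members across the median: without control 1, the library highest in miR-411-5p, the log2 difference of miR-411-5p was 0.025, against a median of -0.0036. miR-154-5p was negative, and below the median, in all 19 alternatives. In each of the 19 alternatives the adjusted p of each of the 5 was 0.312 or more.

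The summed level of the cluster showed the same overlap. It was 3050 ± 421 CPM in control, from 2709 to 3756, and 2883 ± 413 CPM in the treated group, from 2205 to 3323 (SD, n = 5 each). Left without its 4 most abundant members, the cluster summed to 352 ± 53.7 and 335.2 ± 33.6 CPM. As a share of all miRNA counts it took 0.403%, 0.305%, 0.256%, 0.278% and 0.296% in the control libraries and 0.240%, 0.253%, 0.353%, 0.296% and 0.287% in the treated group. Control 1, the highest, had an exact Clopper-Pearson 95% interval of 0.383 to 0.423%, and treated 1, the lowest, one of 0.222 to 0.260%. The groups overlapped.

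The composition of the cluster also varied between libraries, with overlapping ranges in the groups. miR-411-5p took 39.9% to 51.9% of the cluster counts in control and 41.1% to 51.5% in the treated group. The share of the Meg3 and anti-Rtl1 side was 16.1%, 22.6%, 26.7%, 21.1% and 28.3% in control, and 15.3%, 26.5%, 25.3%, 24.7% and 17.8% in the treated group. Control 1, treated 1 and treated 5 had the lowest shares of that side.

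The ratio of miR-411-5p to its neighbour miR-379-5p was steadier than its ratio to miR-127-3p. It was 2.75, 2.90, 2.84, 3.10 and 2.52 in control and 2.32, 2.31, 1.93, 2.84 and 3.07 in the treated group. Against miR-127-3p the ratio was 3.74, 2.37, 1.75, 2.54 and 1.55 in control and 3.96, 1.75, 1.78, 2.06 and 3.34 in the treated group. Its SD was 0.214 and 0.453 for the neighbour, around means of 2.82 and 2.49, and 0.861 and 1.01 for miR-127-3p, around means of 2.39 and 2.58 (n = 5 each). Against miR-154-5p, the mean ratio was 8.94 ± 1.61 in control and 10.3 ± 3.05 in the treated group (SD, n = 5 each). These ratios were not tested, nor was any link to position in the locus.

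**Figure D3:**
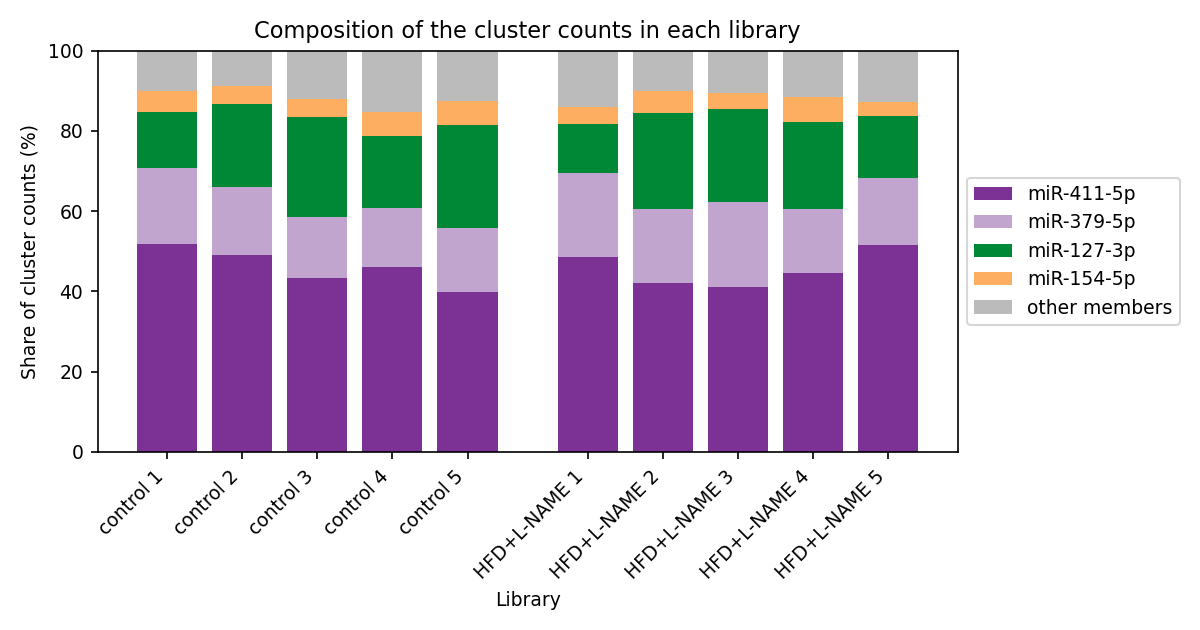
Share of the cluster counts in percent (vertical axis) held by miR-411-5p, miR-379-5p, miR-127-3p, miR-154-5p and all other members together, in each of the 10 libraries (horizontal axis; HFD plus L-NAME is the treated group). miR-411-5p holds 39.9% to 51.9% of each bar, and the miR-127-3p part is smallest in control 1, treated 1 and treated 5.

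The number of members detected was similar in range. Control libraries had 28 to 35 members with a count (30.2 ± 2.95) and treated libraries 30 to 32 (30.8 ± 0.837; SD, n = 5 each). After thinning every library to the depth of the smallest, the means were 27.9 ± 2.43 and 29.5 ± 0.408.

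Below the tested members, 18 others had at least 20 counts in all, and they are described with the help of a looser filter. This filter, at least 1 count in at least 5 libraries, admitted 384 miRNAs, of which 27 were members, all 18 among them. The groups did not overlap in CPM in 0 of the 27 members, against 2.86% of the 384 (11 miRNAs). No member was called at an adjusted p under 0.05 there, against 0.26% of all miRNAs (1 of 384). Of the 27, 10 were higher and 17 lower in the treated group, with a median log2 difference of -0.18, beside 186 higher, 198 lower and a median of -0.02 over all 384. At an unadjusted p under 0.05 in edgeR, 2 members were higher and 0 lower, where 5.47% of all miRNAs were higher (21 of 384) and 5.47% were lower (21 of 384).

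Those 2 members are shown with their sequences because they had the largest log2 differences of the 27 members; they were chosen for printing after their values were seen. miR-376c-5p and miR-369-5p are given beside them, the former because it shares the seed of miR-376b-5p and the latter as the member nearest to the threshold among those that were lower.
miR-495-3p: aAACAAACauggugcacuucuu
miR-376b-5p: gUGGAUAUuccuucuaugguua
miR-376c-5p: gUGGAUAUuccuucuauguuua
miR-369-5p: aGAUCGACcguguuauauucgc
miR-376b-5p and miR-376c-5p differ at 1 of 22 bases, outside the seed, so the counting could split their reads.

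miR-495-3p, also reported to promote proliferation of rodent cardiomyocytes, was counted 2, 0, 0, 1 and 2 times in the control libraries and 2, 3, 4, 4 and 4 times in the treated ones. Most treated libraries were above every control library, but treated 1 matched the highest controls. The log2 difference was 1.90 ± 0.80, with an edgeR adjusted p of 0.329 (0.0215 unadjusted). All 10 libraries were at 4 counts or fewer.

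The counts of miR-376b-5p, of a family known for A-to-I editing in the brain, were 0, 1, 0, 2 and 0 in control and 4, 0, 2, 5 and 1 in the treated group. Most control libraries were at 0, and so was treated 2. The log2 difference was 2.04 ± 0.95 (unadjusted p = 0.0379 and adjusted p = 0.404 in edgeR).

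miR-369-5p, the sixth most abundant member, had counts of 22, 11, 15, 17 and 8 in control and 5, 7, 2, 12 and 7 in the treated group. Control 1, control 3 and control 4 were above every treated library, and control 2 and control 5 lay within the treated range. The log2 difference was -0.86 ± 0.47 (unadjusted p = 0.0730 and adjusted p = 0.519 in edgeR). Its partner from the same hairpin, miR-369-3p, known in human cells to bind AU-rich elements of the TNF mRNA, had 30 control and 19 treated counts and a log2 difference of -0.36 ± 0.57.

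Among the other anti-Rtl1 and Meg3-side members with at least 20 counts, miR-337-5p had 35 counts in control and 45 in the treated group, a log2 difference of 0.62 ± 0.48. miR-434-3p, an anti-Rtl1 miRNA, had 42 and 27 counts, with -0.32 ± 0.49. miR-136-5p, another anti-Rtl1 miRNA, had 14 and 16 counts, with 0.43 ± 0.67. Mir136 overlaps Mir3071 on the opposite strand, and the counting was not stated to use strand, so reads of the pair (35 and 2 counts) cannot be told apart with certainty. miR-341-3p, the rodent-specific miRNA within Rian, had 38 and 23 counts, with -0.43 ± 0.55. None of these 4 passed an unadjusted p under 0.05.

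The other Mirg-side members of this abundance are given by their summed counts, which also reflect the larger control libraries (343348 ± 73358 against 285424 ± 32816 miRNA counts; SD, n = 5 each). miR-154-3p had 28 counts in control and 29 in the treated group, miR-376a-3p had 26 and 27, and miR-376c-3p had 30 and 22. miR-381-3p had 24 and 16 counts, miR-300-3p had 16 and 10, and miR-541-5p had 14 and 21. miR-329-3p had 19 and 13 counts and miR-487b-3p had 15 and 5, the latter with a log2 difference of -1.17 ± 0.88. miR-134-5p, which limits dendritic spine size through Limk1 in neurons, had 17 and 10 counts. miR-382-5p had 22 and 11 counts, and miR-379-3p had 16 and 6. None of these 11 passed an unadjusted p under 0.05 in edgeR with the looser filter.

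**Figure D4:**
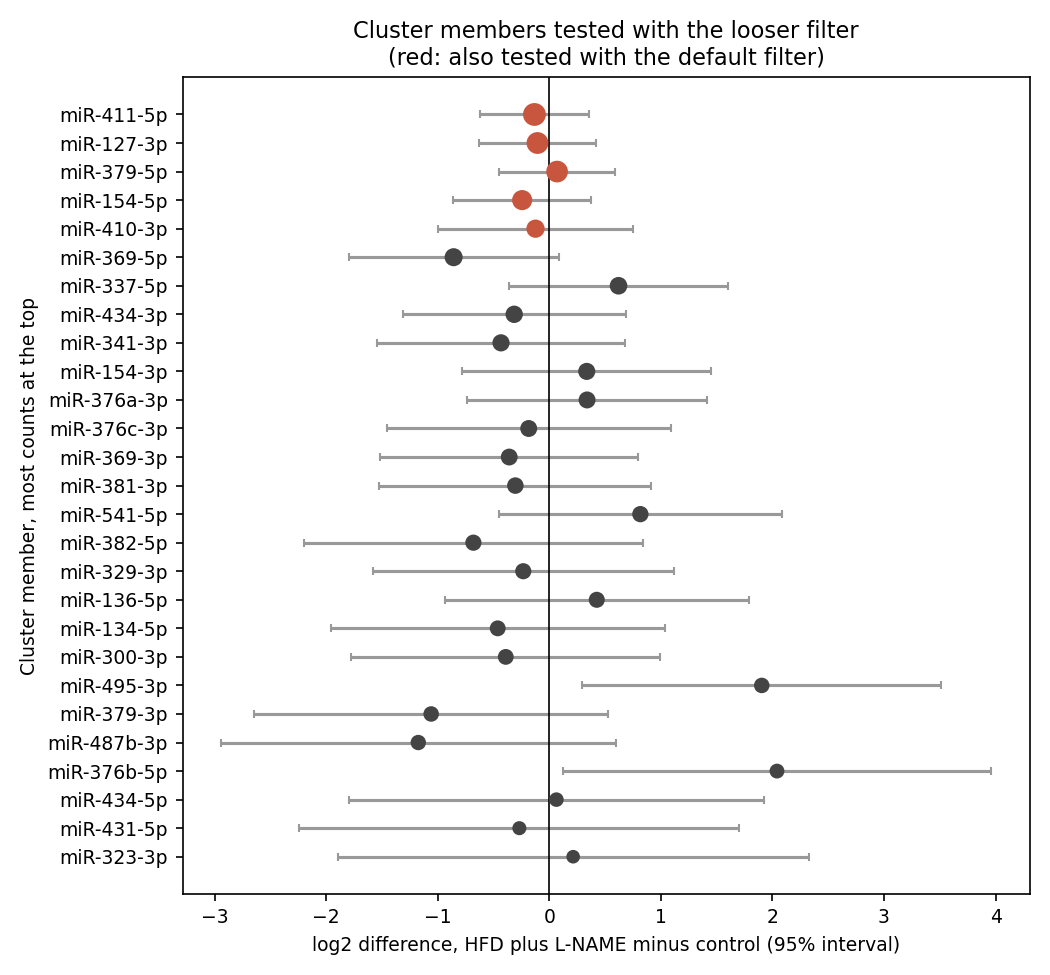
Log2 difference, treated minus control (horizontal axis), with its 95% interval for the 27 members tested with the looser filter, ordered by total counts from the top; red points are the 5 members also tested with the default filter. Intervals widen as counts fall, and those of miR-495-3p (1.90 ± 0.80, SE) and miR-376b-5p (2.04 ± 0.95, SE) alone leave out 0.

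The remaining 38 members had under 20 counts each. They included miR-431-5p, an anti-Rtl1 miRNA, with 10 counts, miR-377-3p with 10, miR-323-3p with 8 and miR-433-3p with 1. For these no statement on the groups was made beyond the looser filter, which reached miR-434-5p, miR-431-5p, miR-323-3p and miR-376b-5p among them.

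Arm use separated the precursors clearly. Both arms had counts in 18 precursors, of which 8 had more on the 5p arm, 8 more on the 3p arm and 2 an equal number. For the 12 of these with at least 20 counts, the share of the 5p arm is given with its exact Clopper-Pearson 95% interval over the 10 libraries together. Mir379 was at 98.7% (98.0 to 99.2%), Mir337 at 94.1% (86.8 to 98.1%) and Mir154 at 89.2% (86.3 to 91.7%). At the other end, Mir127 was at 0.0538% (0.00136 to 0.300%), with 1 count on the 5p arm against 1857 on the 3p arm.

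Mir369 was the most mixed of the better covered hairpins. Its 5p arm took 68.4% (60.4 to 75.6%), 70.9% in control and 63.5% in the treated group. Between single libraries this share ran from 28.6% to 87.5%, wider than the interval, which covers counting error only. For Mir154 the 5p share was 90.8% in control and 87.0% in the treated group, and 71.4% to 97.7% in single libraries. For Mir434 the share over all libraries was 15.9% (8.72 to 25.6%). These group values were not tested.

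**Figure D5:**
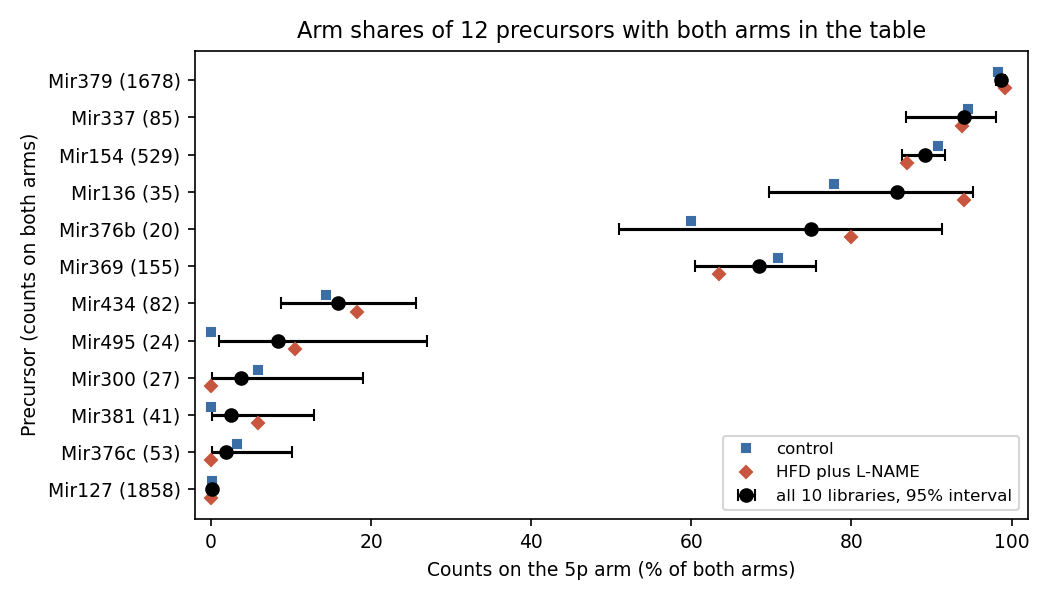
Share of counts on the 5p arm in percent (horizontal axis) for the 12 precursors with counts on both arms and at least 20 in total, which is given in parentheses; black points pool the 10 libraries with the exact 95% interval, squares are control and diamonds HFD plus L-NAME (treated). Mir379 (98.7%), Mir337 and Mir154 lie at the 5p end, Mir127 (0.0538%) at the 3p end, and Mir369 (68.4%) between them.

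The likeness of Mir379 and Mir411 extended to both arms. miR-379-5p and miR-411-5p are identical at 14 of 21 bases. The 3p arms are identical at 20 of 22 bases and share a seed.
miR-379-3p: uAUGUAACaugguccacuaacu
miR-411-3p: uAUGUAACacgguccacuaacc
miR-379-3p had 22 counts, and no value of miR-411-3p was analysed here. Reads that match both could be counted under either name, so the count of miR-379-3p is uncertain.

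Another pair with near-identical arms was miR-300-3p and miR-381-3p, identical at 19 of 22 bases with 1 difference in the seed.
miR-300-3p: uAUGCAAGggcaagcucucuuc
miR-381-3p: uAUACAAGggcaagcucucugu
They had 26 and 40 counts. miR-376a-3p and miR-376b-3p, identical at 18 of 21 bases with 1 difference in the seed, had 53 and 5 counts. miR-299a-3p and miR-299b-3p, from overlapping hairpins on opposite strands, were identical over 18 bases and had 2 counts and 1 count.

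Seeds were compared among the 506 miRNAs of the table with a RefSeq sequence. Few members shared a seed with one of these outside the cluster. miR-410-3p shared its seed with miR-344d-3p, which had 1 count. Among these miRNAs, the counts of that seed came almost entirely from the cluster. miR-329-3p (32 counts) shared a seed with miR-362-3p (12 counts), and miR-540-3p (2 counts) with miR-6915-5p (1 count). The seeds of the other tested members, miR-411-5p, miR-379-5p, miR-127-3p and miR-154-5p, were found in no other miRNA of the table that had a RefSeq sequence.

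Short motifs were searched as exact letters in the mature sequences, on the RNA strand only, in the 57 members with a RefSeq sequence and in 449 other miRNAs of the table. GGAG was in 5.26% of members and 9.80% of the others. CCCU was in 5.26% and 8.69%, and GGCU in 7.02% and 11.1%. Of the 5 tested members only miR-127-3p held any of these motifs, GGCU. The median GC content was 45.5% in members and 47.8% in the others, and the first base was U in 45.6% and 40.8%. A match is a description of the letters and was not tested.

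The miRNAs of other imprinted loci in the table are given for comparison. The repeat-derived miRNAs of the Sfmbt2 locus, a paternally expressed cluster, had 32 rows and 893 counts, with the largest member, miR-467e-5p, at 320 counts or 35.8% of them, whereas miR-411-5p held 46.4% of the Dlk1-Dio3 counts. At least 5 counts were reached by 17 of those 32 (53.1%) and by 36 of the 61 cluster members (59.0%). The Sfmbt2 miRNAs summed to 323.3 ± 47.3 CPM in control and 235 ± 74.5 CPM in the treated group (SD, n = 5 each). Of miR-335-5p, from an intron of the imprinted gene Mest, the level was 35.4 ± 19.1 CPM in control and 86.1 ± 31.8 CPM in the treated group, a log2 difference of 1.28 ± 0.42 with an edgeR adjusted p of 0.174. Of 3 tested miRNAs of other imprinted loci, 0 were called by edgeR, DESeq2 or limma. At an unadjusted p under 0.05 in edgeR, 1 of the 3 passed, miR-335-5p, against 15.8% of all tested miRNAs (28 of 177). Also listed were miR-675-3p, of H19, and miR-296-5p, of Nespas, which did not pass the filter. miR-675-3p had 26 counts, at 7.79 ± 6.63 CPM in control and 8.57 ± 7.46 CPM in the treated group. miR-296-5p had 14 counts, at 4.12 ± 4.56 CPM in control and 4.51 ± 6.73 CPM in the treated group (SD, n = 5 each). The difference of the cluster from these lists was not tested.

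Because the cluster is plentiful in brain, the listed neuron and glia miRNAs are given beside it. Of 8 listed, 6 had a row, and they summed to 221 to 577 CPM in control and 304 to 482 CPM in the treated group, against 2709 to 3756 and 2205 to 3323 CPM for the cluster. miR-128-3p, which is not confined to neurons, gave 998 of their 1211 counts, whereas miR-124-3p, the defining neuronal miRNA, had 20 counts over 10 libraries and miR-9-5p had 92. miR-129-5p and miR-219a-5p were not analysed here. The summed fibroblast and mesenchyme list, all 5 of 5 counted, was 341.5 to 4884 CPM in control and 814 to 10505 CPM in the treated group. Of its counts, miR-199a-3p gave 89.7%, and of its 4 tested members 3 were higher and 1 lower in the treated group. The red blood cell list, 4 of 4, was 17806 to 54016 CPM in control and 9292 to 26071 CPM in the treated group. Of its counts, miR-451a gave 98.2%, and of its 4 members 1 was higher and 3 lower in the treated group. The smooth muscle and pericyte list, 2 of 2, was 42539 to 65483 CPM in control and 29556 to 40854 CPM in the treated group, with no overlap. Of its counts, miR-143-3p alone gave 94.5%. In the treated group 1 of its 2 members was higher and 1 lower, and edgeR called 0 at an adjusted p under 0.05. Over all tested miRNAs taken singly, the groups did not overlap in 3.95% (7 of 177). The endothelium list, 2 of 2, was 61553 to 84628 CPM in control and 40453 to 73476 CPM in the treated group. Of its counts, miR-126a-3p gave 97.0%, and of its 2 members 1 was higher and 1 lower in the treated group. The leukocyte list, 6 of 6, was 3924 to 5152 CPM in control and 3031 to 6118 CPM in the treated group. Of its counts, miR-146a-5p gave 78.0%, and of its 4 tested members 2 were higher and 2 lower in the treated group. Of the 2 listed endocrine miRNAs, miR-375-3p was not analysed here. The other, miR-7a-5p, was 202 to 325 CPM in control and 166 to 627 CPM in the treated group. The part of these cell types in the cluster's level was not tested.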

How the data were processed

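Small RNA libraries of heart vesicles were made with an MGIEasy kit, per the labels' protocols. The authors deposited read counts per miRNA and a scaled signal, each count divided by 1 constant per library with no unit in the header. Their group means were not used. The submitters' processing notes name GRCm38.p6. Which aligner and counter were used is not given here. Counts were tested over the whole table with edgeR 4.0.16 (TMM, default filter by group, robust quasi-likelihood test, Benjamini-Hochberg adjustment, threshold 0.05), with R 4.3.3. DESeq2 1.42.0, limma 3.58.1, other filters and scalings and leaving out each library were alternatives. CPM values are TMM-scaled, except the limit that a count of 0 allows. Members passing the filter were named with all values, and others with at least 20 counts with their totals. Precursors and sequences came from RefSeq and spans were checked against GENCODE. Replicate numbers follow accession order, so no libraries were paired. The members and lists were chosen with earlier results of these data known.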

Additional observations from a re-analysis of the deposited data

How the results depend on the processing

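No member of the cluster was called in any of the 19 alternatives run. No paired analysis was possible because the labels give no replicate numbers that the groups share. Over the whole table the count of called miRNAs was 0 with the default filter and with limma and DESeq2's Wald test on the whole table. It was 3 with DESeq2's Wald test on the filtered miRNAs (miR-23a-3p, miR-125b-5p and miR-499-5p), a setting chosen after seeing the data. It was 1 with no filter and 1 with the looser filter (miR-200c-3p in both), and 0 to 1 when a library was left out: 1 without control 1 (miR-148a-3p) and 1 without control 2 (a predicted miRNA). In the main edgeR fit the smallest adjusted p over all tested miRNAs was 0.172.

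Some signs within the cluster changed with 2 of the scalings and with single libraries left out. Without miR-1a-3p the median of all tested miRNAs was 0.12 (main value -0.02) and the log2 differences were 0.0030 for miR-411-5p, 0.019 for miR-127-3p and 0.0043 for miR-410-3p. With the constants behind the authors' scaled signal as library sizes, chosen after seeing the data, the median of all tested miRNAs was -0.37, that of the 6 members then tested -0.55, the summed level -0.48 (main value -0.08) and miR-379-5p -0.34. Leaving out a library gave -0.25 to 0.025 for miR-411-5p, -0.25 to 0.056 for miR-127-3p, -0.049 to 0.24 for miR-379-5p, -0.33 to 0.078 for miR-410-3p and -0.34 to -0.13 for miR-154-5p, which kept its sign in all 19 alternatives. Relative to the median of all tested miRNAs, miR-379-5p was above it in the main fit and both of these scalings, and the other 4 below it. When a library was left out, the member median ranged from -0.24 to 0.025 and the summed level from -0.16 to 0.0056. Without miR-1a-3p the median of the 6 members then tested was 0.0037 and the summed level was 0.042. Members detected differed by 0.6 (0.05 to 1.8 when a library was left out) and by -1.6 at 5 or more counts. The cause of these shifts was not tested. Low counts limit 56 of 61 members.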
